A study of Homo sapiens with 7 samples.

Results

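Clone 5 of Panc1 cells labelled as overexpressing S100P was compared with vector clones of the same line, gene by gene, on expression arrays. The comparison rests on 5 of the 7 arrays of the study: 2 of clone 5 (a and b), 2 of vector clone V3 (a and b) and 1 of vector clone V1. Both vector clones were given equal weight, and the members were taken by their labels alone. Panc1 is an established human line from a ductal adenocarcinoma of the pancreas. Per the labels, clone 5 carries pcDNA3.1 with S100P fused to a V5-His tag, and the vector clones carry the plasmid with the tag but no S100P. Every line was a stable transfectant grown from a single cell, kept in serum-containing medium and harvested before confluence, with no other treatment. Each clone is therefore 1 descendant of 1 transfected cell, and whatever set that cell apart cannot be told apart from the plasmid it carries. The labels do not tell whether a and b were grown separately, so the p-values measure only the spread between arrays of a clone, which may be technical. V1 had 1 array and was assumed to vary like the other clones. Its description in the labels begins with other letters than those of the remaining arrays, with no word on what they stand for, so a difference in handling cannot be told apart from the clone. The remaining 2 arrays, of clone 1 with the same S100P plasmid, entered the fit to help estimate that spread and served as a reference where stated.

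S100P is a small EF-hand protein that binds calcium and zinc. It is nearly silent in the normal pancreatic duct and is switched on in most pancreatic cancers. Inside the cell it binds ezrin, IQGAP1 and non-muscle myosin, through which it acts on the cortical cytoskeleton. Outside the cell it is a ligand of the receptor RAGE, which feeds into ERK and NF-kB signalling. Its reported effects include loss of focal adhesions, motility, and secretion of proteases such as cathepsin D.

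Array medians lay between 4.51 and 4.58 on the log2 scale, and 32.1% to 33.3% of the probe sets read at least 6. Arrays a and b of clone 5 correlated at r = 0.9955 across probe sets, and those of V3 at 0.9965, while V1 correlated with the other arrays at 0.982 to 0.990. The 3' minus 5' log2 difference of the ACTB control, a gauge of RNA integrity in which higher values mean more degraded RNA, was 0.29 and 0.27 on clone 5, against 0.28 and 0.32 on V3 and 0.18 on V1. The clone 1 arrays stood above all of these, at 0.53 and 0.44, which bears on every comparison with clone 1. Its part in the results was not tested.

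S100P itself read 5.36 and 5.45 on clone 5, against 5.65 and 6.01 on V3 and 4.65 on V1. Clone 5 thus lay below both V3 arrays and above V1. The log2 difference from the vector clones was 0.17 (SE 0.12, limma adjusted p = 0.533). It was -0.43 against V3 (adjusted p = 0.156) and 0.76 against V1 (adjusted p = 0.0344). Only 1 probe set names S100P. Since its match to the tagged transgene is unknown, the labels remain unchecked. In what follows clone 5 means the arrays labelled clone 5, and each direction is that of the labels.

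Across 19775 genes, each represented by its brightest single-symbol probe set, 1699 differed between clone 5 and the vector clones (8.59%) at an adjusted p of 0.05. Of these, 1118 were higher in clone 5 (5.65% of all genes) and 581 lower (2.94%). A difference of at least 2-fold was met by 304 genes (1.54%), 202 of them higher (1.02%) and 102 lower (0.516%). The median log2 difference over all genes was 0.01. Called shares of the gene lists below are set beside that 8.59%. The lists were chosen with earlier results of these data known, so a share above it is no test of a list. The same test over all 54613 probe sets called 3684 (6.75%). Both clone 5 arrays lay outside the range of the 3 vector arrays for 4955 genes (25.1%), above it for 14.4% and below it for 10.7%, and 1426 genes were both called and outside that range (7.21%). Leaving out an array of clone 1, clone 5 or V3 left 2 residual degrees of freedom instead of 3. Fewer calls then do not by themselves show that differences rest on that array. The count of probe sets turned on single arrays: it was 178 without clone 5 a, 279 without clone 5 b, 445 without either clone 1 array, 1041 without V3 a, 1345 without V3 b and 2292 without V1. When the arrays of a clone were averaged first, so that clones were the replicates, it was 0, with 1912 at an unadjusted p under 0.05.

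The vector clones were not alike. V1 differed from V3 in 1526 genes (7.72%). Clone 5 differed from V3 in 962 genes (4.86%, with 2.83% higher and 2.04% lower) and from V1 in 2197 (11.1%, with 7.19% higher and 3.92% lower), and in 471 genes it differed from both in the same direction (2.38%). Of the 1699 genes called against the mean of both, 1607 had the same sign against each (94.6%). Of the 156 called genes that the naming rule covers, 57 did not pass against V3 alone and 17 did not pass against V1 alone. The 57 were S100A3, CTSD, CGN, ITGA3, CD47, FUT4, CDC42EP5, VCL, MMP2, LOXL1, COL7A1, PLXND1, EFNB2, EFNA5, SV2A, RAB27A, IFI6, ISG20, FOSB, ETV5, DUSP6, FOS, FOSL1, ERBB2, ERRFI1, NRG1, LRP6, FZD2, WNT7B, HHAT, KIF11, AURKA, BUB1B, PLK1, CDC6, CCNE1, MCM5, CDKN1B, CDKN3, DDIT4, DDIT3, ATF4, TM7SF2, SCD, ENO2, ALDOC, VEGFA, ABCC5, ABCA1, ABCC3, STEAP2, HES1, GATA4, SYP, GAL, CD14 and POLR2A. The 17 were CGN, FUT4, KRT7, ELF3, CTSV, EFNA5, PSMB9, IGF1R, ID1, ID3, TGFB2, DDIT3, PLIN2, TFRC, SOX9, FOXA1 and THY1. Their folds below are those against the mean of both vector clones. Each named gene is given at its brightest probe set, and other probe sets that did not pass are not always given.

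**Figure D1:**
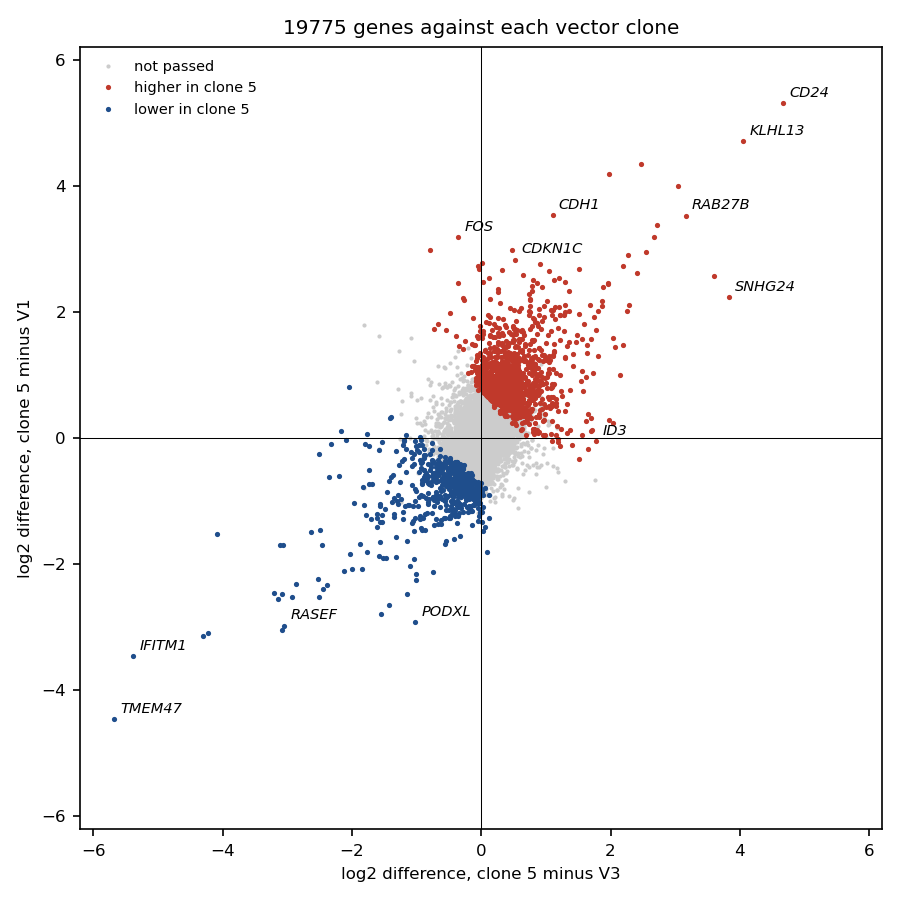
Log2 difference of clone 5 from V3 (horizontal axis) against that from V1 (vertical axis), 1 point per gene; both axes share the clone 5 arrays, so points lean towards the diagonal for that reason too. Coloured points are genes called against the mean of both vector clones, higher in red and lower in blue. CD24 and TMEM47 lie far out on both axes, whereas FOS and CDKN1C differ mainly from V1 and ID3 mainly from V3.

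The 15 higher and 15 lower genes that stood out most, ranked by the smaller of their differences from V3 and V1, ranged from 4.38-fold to 33.4-fold. None of these 30 reversed under any setting tried, and all 30 passed against V3 alone and against V1 alone. The ranking asked for large differences from each vector clone, so both were largely fixed by it. With clone averages none of the 30 kept its call. With any single array left out, 23 kept their call. Those that did not were the 7 genes SLC16A14, DIPK1A, DACT2, PLAGL1, SCNN1G, FAM241A and TIAM1. Without clone 5 a their adjusted p ranged from 0.056 for PLAGL1 to 0.105 for DACT2, and without clone 5 b every one but FAM241A was also lost. SLC16A14 and DACT2 were lost without a clone 1 array as well. In 10 of the 30, clone 5 also differed from clone 1. Other probe sets existed for 21 of the 30. In 17 of these at least 1 was called in the same direction, but not in COL4A5, SCNN1G, FAM241A and SHH.

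**Figure D2:**
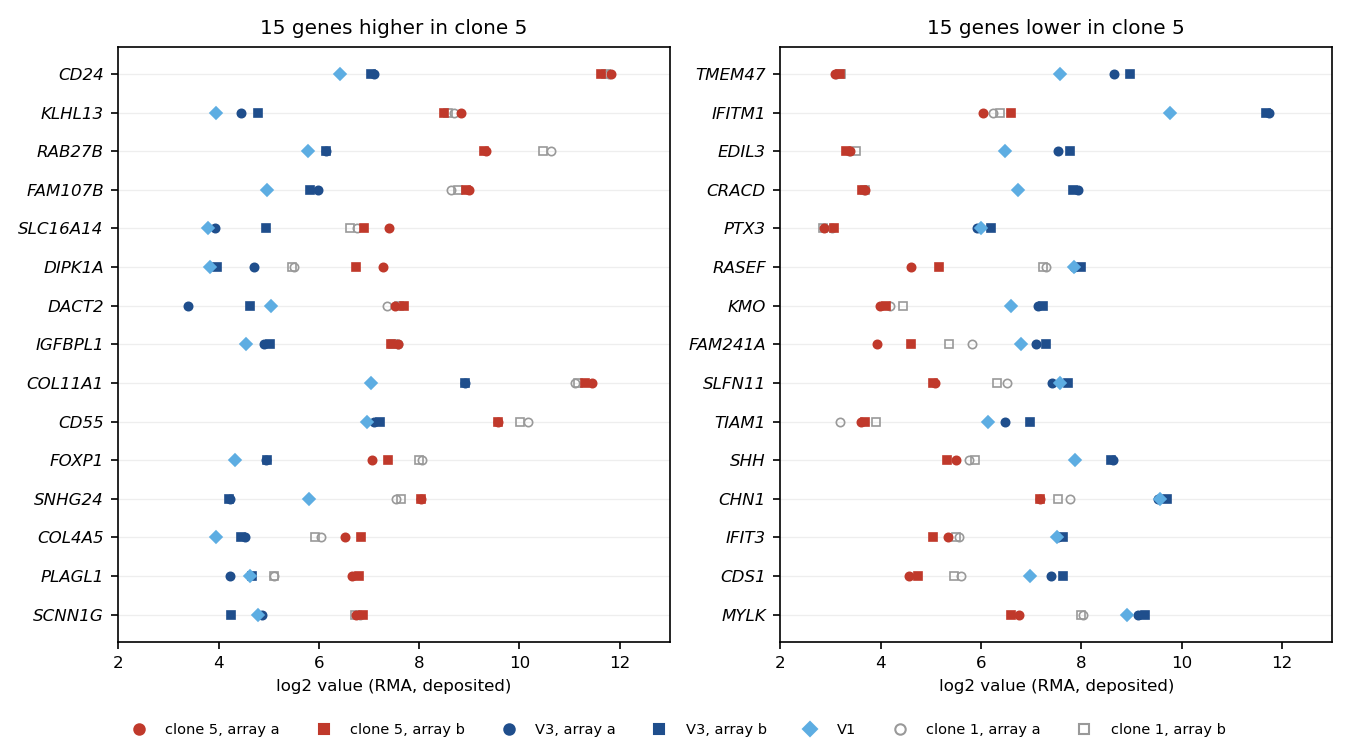
Log2 value on each array for the 15 higher (left) and 15 lower (right) genes of largest difference. Each row is a gene, each filled point an array of clone 5, V3 or V1, and each open point an array of clone 1; in every row both clone 5 points lie on one side of the 3 vector points, as the choice of these genes required.

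The largest rise was that of CD24, a heavily glycosylated surface protein that serves as a ligand of P-selectin and of Siglec-10. CD24 read 11.82 and 11.64 on clone 5, against 7.10 and 7.03 on V3 and 6.42 on V1. The groups lay more than 4 log2 units apart, a 31.7-fold difference (log2 4.99, SE 0.09, adjusted p = 2.04e-06). All 5 other CD24 probe sets were called too, at log2 differences of 3.45 to 5.00. Of 21 selectin ligands and enzymes that decorate them, CD24 alone was higher and 3 were lower (19% called against 8.59% of all genes). The list median was 0.001. Podocalyxin (PODXL), a sialomucin, read 5.94 and 5.75 on clone 5, against 6.76 and 6.97 on V3 and 8.77 on V1. It was 2.03-fold lower than V3 and 7.59-fold lower than V1, so most of its difference lay in V1. LGALS3BP, a secreted galectin partner, was 2.71-fold lower, and the fucosyltransferase FUT4 1.55-fold lower.

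CD55, which speeds the decay of complement convertases on the cell surface, read 9.58 and 9.57 on clone 5, against 7.10 and 7.22 on V3 and 6.96 on V1. It was 5.72-fold higher (SE 0.09 log2, adjusted p = 3.57e-05), and its other probe sets were higher by 2.53 and 2.64 on the log2 scale. PTX3, a secreted pentraxin that binds C1q and factor H, went the other way. It read 2.88 and 3.07 on clone 5 against 5.93, 6.19 and 6.01 on the vector arrays, an 8.35-fold difference (adjusted p = 4.88e-05). The clone 5 level lay below the median of every array, where RMA compresses differences, so the size of that fold is open. These were the only 2 called of 12 complement regulators measured (16.7% against 8.59% of all genes).

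Of 19 cadherins, catenins and desmosomal genes, 5 were higher and 2 lower, a share of 36.8% against 8.59% of all genes, with a median log2 difference of 0.17 against 0.01. With an array left out 2 to 4 were higher and 1 or 2 lower. The desmosomal cadherin DSC2 read 8.38 and 8.20 on clone 5, against 6.38 and 6.42 on V3 and 5.90 on V1, 4.4-fold higher (adjusted p = 7.31e-05). Desmoplakin (DSP), which ties desmosomes to keratin filaments, was 2.19-fold higher, and the desmosomal cadherin DSG2 1.65-fold higher. E-cadherin (CDH1), the adherens junction protein of epithelia, read 7.36 and 7.37 on clone 5, against 6.17 and 6.36 on V3 and 3.83 on V1. Clone 5 lay above all vector arrays, by 2.15-fold over V3 and 11.6-fold over V1. Its other probe set did not pass (log2 0.43, adjusted p = 0.0606).

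N-cadherin (CDH2), the classical cadherin of mesenchymal cells, read 6.61 and 6.39 on clone 5 against 8.49, 8.58 and 8.33 on the vector arrays. It was 3.82-fold lower (SE 0.10 log2, adjusted p = 0.000187) and lower at its other probe set by 1.28. CDH11, a mesenchymal cadherin, was 1.8-fold lower at its brightest probe set and 11.6-fold lower at another. At that probe set it read 2.67 and 2.68 on clone 5, against 6.84 and 6.88 on V3 and 5.57 on V1, while 2 further ones did not pass. Those clone 5 values lay below every array median, so the size of the 11.6-fold difference is open. Of 19 genes of the mesenchymal transition list, CDH1 was higher and CDH2 and ELF3 were lower (15.8% called against 8.59% of all genes). The list median was -0.03. ELF3, an epithelial ETS factor, was lower than V3 (6.51 and 6.37 against 7.81 and 7.86) but not than V1 (6.11).

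TMEM47, a tetraspan protein of cell junctions related to claudins, had the largest fall of all genes named. It read 3.09 and 3.18 on clone 5, against 8.66 and 8.96 on V3 and 7.58 on V1. Against the mean of the vector clones it was 33.4-fold lower (adjusted p = 3.73e-06), and its other probe set was lower by 2.50 on the log2 scale. The fold was 51.2 against V3 and 21.9 against V1. As clone 5 lay below every array median there, the fold's size is open. Of 21 tight junction genes, JAM3 (1.77-fold) and cingulin (CGN, 1.44-fold) were higher and TMEM47 alone was lower. That is 14.3%, against 8.59% of all genes.

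Among 27 integrins and immunoglobulin-type adhesion receptors, 2 were higher and 2 lower (14.8% called against 8.59% of all genes). LSAMP, a GPI-anchored adhesion molecule, read 6.26 and 6.86 on clone 5 against 4.65, 4.74 and 4.46 on the vector arrays. It was 3.95-fold higher (adjusted p = 0.00185), with 4 of its 5 other probe sets also called. ALCAM, which binds itself and CD6, was 2.1-fold higher. The laminin-binding integrin chain ITGA3 was 1.59-fold lower and CD47, the ligand of SIRP-alpha on phagocytes, 1.42-fold lower, though neither passed against V3 alone (adjusted p = 0.0824 and 0.0682).

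Of 36 actin and contractility genes, 1 was higher and 3 were lower (11.1% called, near the 8.59% of all genes), with a median of -0.05. CRACD, an inhibitor of actin-capping protein, read 3.69 and 3.62 on clone 5, against 7.94 and 7.83 on V3 and 6.74 on V1, 12.6-fold lower (adjusted p = 3.73e-06). Clone 5 lay below every array median there, so the fold's size is open. Of its 2 other probe sets 1 was also called and 1 was not. Myosin light chain kinase (MYLK), which switches on non-muscle myosin, read 6.77 and 6.60 on clone 5 against 9.14, 9.28 and 8.92. It was 5.2-fold lower at this probe set and lower by 1.36 on the log2 scale at another, and 3 dim ones did not pass. LIMA1, which crosslinks and stabilises actin bundles, was 2.1-fold lower, and vinculin (VCL), a focal adhesion adaptor, 1.39-fold higher.

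Exchange factors that load Rac with GTP were among the lower genes. TIAM1 read 3.62 and 3.69 on clone 5 against 6.48, 6.98 and 6.13 on the vector arrays, 6.86-fold lower (SE 0.23 log2, adjusted p = 0.00136). Its clone 5 level lay below every array median, so the fold's size is open. DOCK4 read 5.94 and 5.50 against 8.2, 8.17 and 7.41, 4.22-fold lower (adjusted p = 0.000476), with its 3 other, dim probe sets not called. The Rac GTPase-activating protein chimaerin (CHN1) was lower too, at 7.18 on both clone 5 arrays against 9.54, 9.71 and 9.57, a 5.33-fold difference. So both activators and an inactivator of Rac were lower at the RNA level. CDC42EP5, a Cdc42 effector, was called 1.75-fold higher, but read 7.90 on both clone 5 arrays, against 7.92 and 7.89 on V3 and 6.28 on V1, so the difference lay in V1 alone.

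Of 16 keratins and other intermediate filament genes, none was higher and 3 were lower (18.8% called against 8.59% of all genes). KRT80 read 6.34 and 5.97 on clone 5 against 8.14, 8.41 and 8.25, a 4.33-fold difference (adjusted p = 0.000473). KRT7, a keratin of simple and ductal epithelia, was 1.62-fold lower and passed against V3 but not V1 (adjusted p = 0.025 and 0.168). Nestin (NES), a filament of progenitor cells, was 1.77-fold lower.

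Of 31 collagens and matrix genes, 4 were higher and 2 lower (19.4% against 8.59% of all genes), 25 did not pass, and the list median was -0.03. COL11A1, a minor fibrillar collagen that is prominent in tumour stroma, read 11.45 and 11.31 on clone 5, against 8.92 and 8.91 on V3 and 7.04 on V1. It was 5.52-fold above V3 and 20.3-fold above V1 (10.6-fold against their mean, adjusted p = 6.12e-06), and both other probe sets were called. COL4A5, a basement membrane collagen, read 6.53 and 6.84 against 4.53, 4.46 and 3.95, 5.5-fold higher. Its other probe set was not called (log2 0.27). COL5A2 was 2.76-fold and the crosslinking enzyme LOXL1 1.92-fold higher. EDIL3, a secreted ligand of integrins, read 3.38 and 3.31 on clone 5, against 7.53 and 7.77 on V3 and 6.48 on V1, 13.2-fold lower (adjusted p = 8.51e-06). As clone 5 lay below every array median, the size of the EDIL3 fold is open. Of 29 extracellular proteases and inhibitors, MMP2 and cathepsin D were higher and CTSV was lower (10.3% called, near the 8.59% of all genes). MMP2 read 8.84 and 8.90 on clone 5, close to 8.85 and 8.84 on V3, against 7.64 on V1.

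Of 29 guidance genes 9 were called (31% against 8.59% of all genes), with 5 higher and 4 lower, which became 0 to 4 and 2 to 3 with an array left out. Netrin-1 (NTN1), a secreted cue, read 4.20 and 4.42 on clone 5, against 7.47 and 7.36 on V3 and 6.0 on V1, 5.28-fold lower (adjusted p = 6.1e-05), with its 2 other probe sets not called. The NTN1 fold is open in size, as clone 5 lay below every array median. NTN4 was 2.7-fold lower. UNC5C, a netrin receptor that mediates repulsion, was 2.38-fold higher, at 7.52 and 7.33 against 6.26, 6.35 and 6.04. EPHB6, an Eph receptor without kinase activity, was 3.11-fold higher, while the ephrins EFNB2 and EFNA5 were 1.55-fold and 1.3-fold lower. The vector mean of EPHB6 lay below every array median, so that fold is open in size. The semaphorin SEMA3C was 1.72-fold and the receptor PLXND1 1.61-fold higher. The cue gene SHH, the hedgehog ligand re-expressed in pancreatic cancer, read 5.49 and 5.32 on clone 5 against 8.64, 8.59 and 7.87, a 7.12-fold difference (adjusted p = 2.38e-05). Its other probe set did not pass (-0.55, adjusted p = 0.0938). Of 15 hedgehog pathway genes the transcription factor GLI2 was also lower (1.71-fold), and HHAT, the enzyme that palmitoylates hedgehog ligands, was 1.54-fold higher. With SHH, 20% of that list was called, against 8.59% of all genes.

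RAB27B, a GTPase that docks secretory vesicles and exosomes at the plasma membrane, read 9.33 and 9.28 on clone 5 against 6.15, 6.14 and 5.78 on the vector arrays, 10.2-fold higher (adjusted p = 6.6e-06). Both other probe sets were dim and also called, higher by 0.57 and 0.58. Its paralog RAB27A was 1.3-fold lower, at 5.95 and 5.87 on clone 5, against 5.93 and 6.0 on V3 and 6.61 on V1, a difference that lay in V1 alone. EXPH5, a RAB27 effector, was 1.69-fold lower. Of 21 secretory GTPases and effectors, 2 were higher and 2 lower (19% called against 8.59% of all genes).

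Some interferon-induced genes were lower in clone 5, while most did not pass. Type I interferons switch on antiviral genes through a short element in their promoters. Of 32 measured genes of this response, 10 were lower and 2 higher (37.5% against 8.59% of all genes), with a median log2 difference of -0.16. Against V3 alone 10 were lower and 0 higher, and against V1 alone 8 were lower and 2 higher. With an array left out, 3 to 10 were lower and 0 higher. IFITM1, a membrane protein that blocks virus entry, read 6.04 and 6.60 on clone 5, against 11.73 and 11.68 on V3 and 9.78 on V1. It was 21.4-fold lower (SE 0.16 log2, adjusted p = 3.71e-05), 41.8-fold against V3 and 11-fold against V1. IFIT3, which binds IFIT1 on viral RNA, read 5.34 and 5.05 against 7.53, 7.64 and 7.52 on the vector arrays, 5.13-fold lower (adjusted p = 0.000119). IFIT2 was 3.22-fold and MX2 2.19-fold lower. IFI6 and ISG20, which were 1.47-fold and 1.36-fold higher, passed against V1 but not against V3 (adjusted p = 0.124 and 0.363). The remaining 20 did not pass.

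The interferon element was searched on both strands as GAAA, any 2 bases and GAAA again, in the 250 bases before each gene start (RefSeq, GRCh38.p14). It is present in 839 of 27305 promoters (3.07%). Of the interferon list, 26 genes had a promoter entry and 15 held the element: 5 of the 7 lower genes, 2 of the 2 higher genes, and 8 of the 16 that did not pass. The remaining 1 of the 26 was not analysed here. Presence of these letters therefore did not separate lower genes from the others. The promoter stretches of the 5 lower genes that hold it are printed, 80 bases each around the copy nearest the gene start, gene strand, 5′ to 3′, with the element in capitals. IFIT1, IFIH1 and OAS3 are named for this reason, after their values were seen.
IFIT1 (chr10:89392500-89392579, plus strand): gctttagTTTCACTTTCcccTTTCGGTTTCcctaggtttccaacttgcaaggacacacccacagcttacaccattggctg
IFIT3 (chr10:89327855-89327934, plus strand): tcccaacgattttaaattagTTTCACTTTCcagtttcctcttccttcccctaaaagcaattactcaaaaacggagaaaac
IFITM1 (chr11:313960-314039, plus strand): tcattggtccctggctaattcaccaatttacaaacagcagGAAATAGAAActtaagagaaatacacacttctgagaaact
OAS3 (chr12:112938394-112938473, plus strand): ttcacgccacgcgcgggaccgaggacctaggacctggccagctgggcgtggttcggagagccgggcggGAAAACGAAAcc
IFIH1 (chr2:162318685-162318764, minus strand): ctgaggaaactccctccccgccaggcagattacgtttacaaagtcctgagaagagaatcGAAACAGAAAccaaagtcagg
Within the whole 250 bases IFIT1, IFIT3 and OAS3 hold 2 copies each, IFIH1 3 and IFITM1 1, so the stretches of IFIT3, OAS3 and IFIH1 leave out copies further upstream. IFIT1 was 2.27-fold lower, and IFITM1 had the largest fall of the list. OAS3, an enzyme that makes the activator of RNase L, was 1.44-fold lower, and IFIH1, a sensor of double-stranded RNA, 2.12-fold lower.

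Of 26 NF-kB targets and chemokines, 6 were lower (23.1% called, against 8.59% of all genes), 0 were higher and 20 did not pass, with a median of -0.15; with an array left out 1 to 7 were lower. TNFAIP2, a TNF-induced gene, read 8.05 and 8.13 on clone 5 against 9.79, 9.93 and 9.90 on the vector arrays, a 3.46-fold difference (adjusted p = 0.000141). Its other probe set was not called (log2 -0.16). The neutrophil attractant CXCL8 read 4.39 and 3.59 against 5.12, 5.72 and 6.63, 4.1-fold lower (SE 0.26 log2), with wide spread on both sides. Its fold is open in size, as clone 5 lay below every array median. CXCL1 was 2.47-fold and the monocyte attractant CCL2 2.17-fold lower. Of 20 genes of class I antigen presentation, only the immunoproteasome subunits PSMB8 (1.61-fold) and PSMB9 (1.44-fold) were lower. That is 10%, near the 8.59% of all genes.

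**Figure D3:**
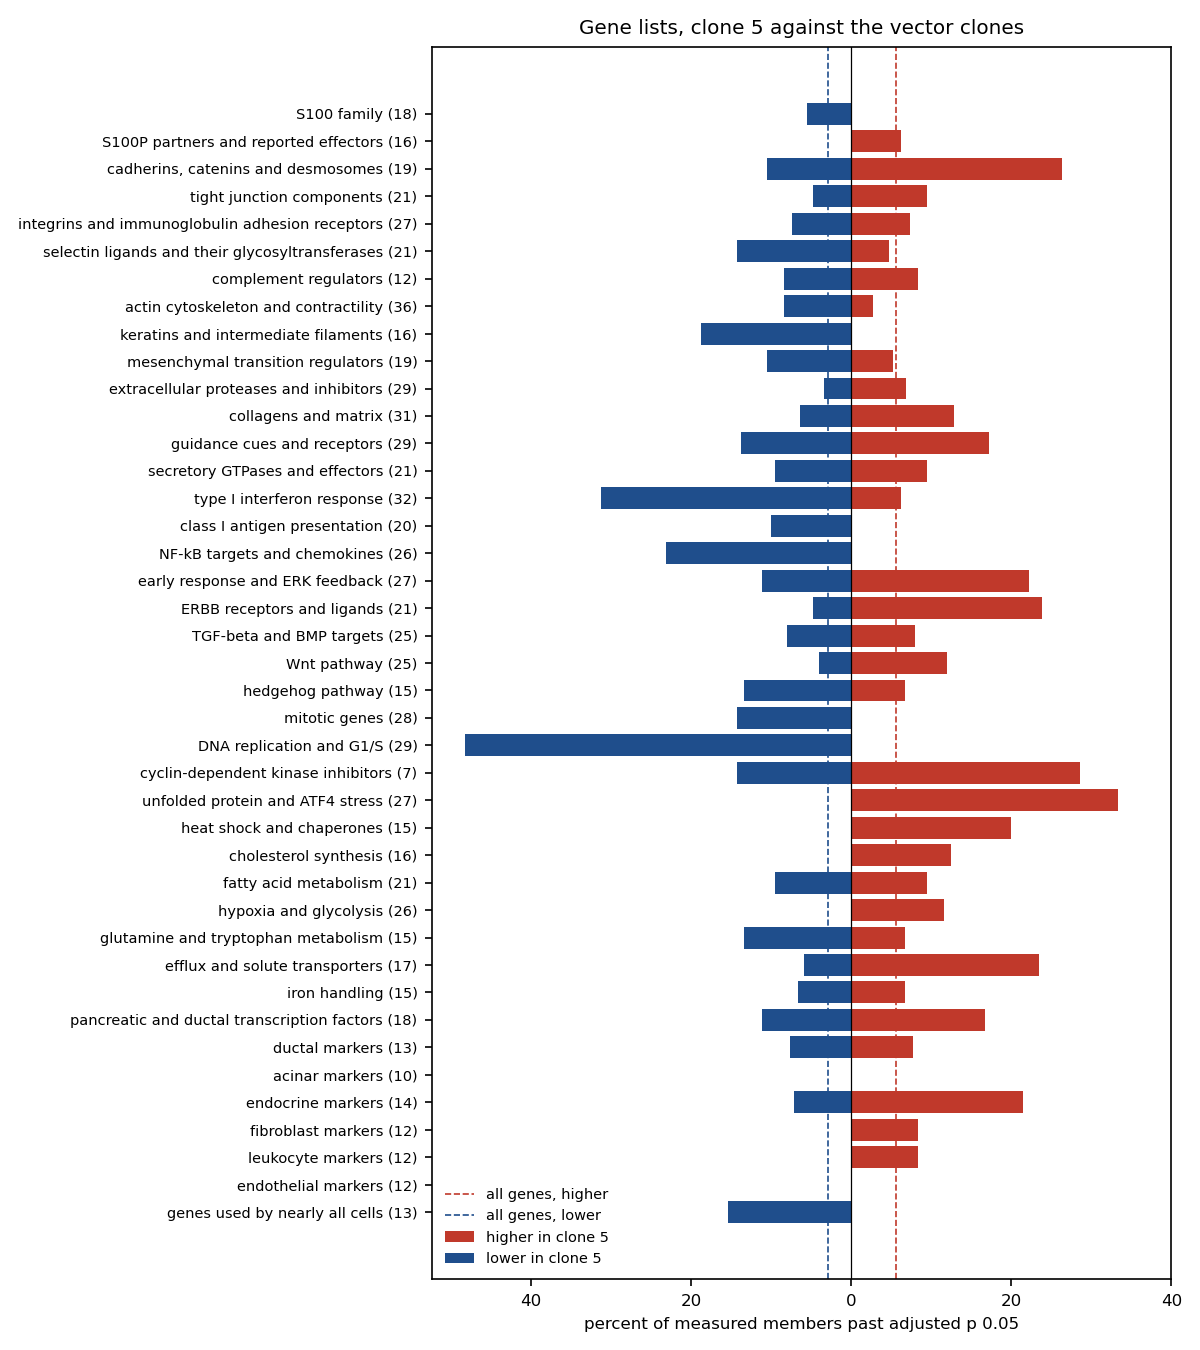
Percent of the measured members of each gene list that were called higher in clone 5 (bars to the right) or lower (bars to the left), with the number measured in brackets, for the lists reported here; dashed lines mark the shares over all genes, 5.65% and 2.94%. The longest bars to the left are those of DNA replication (14 of 29 genes), interferon response (10 of 32) and NF-kB targets (6 of 26), and the longest to the right that of the ATF4 stress list (9 of 27).

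Proliferation and stress genes depended on which vector clone was the reference. Of 29 DNA replication genes, 14 were lower in clone 5 and 0 higher (48.3% against 8.59% of all genes), with a median of -0.41. Against V1 24 were lower, with a median of -0.75. Against V3 1 was lower and the median was -0.05, and with any single array left out 0 to 2 were lower. V1 exceeded V3 in 18 of the 29. With the clone as a random block, whose negative correlation makes no allowance for spread between clones, 0 were lower. CDC6 and CDT1, which load the replicative helicase, were 1.65-fold and 1.66-fold lower. CDC6 read 7.82 on both clone 5 arrays, against 8.39 and 8.0 on V3 and 8.89 on V1. The helicase subunit MCM5 was 1.53-fold and cyclin E1 (CCNE1) 1.41-fold lower. Of 28 mitotic genes, 4 were lower and 0 higher (14.3% against 8.59% of all genes), with a median of -0.28. That median was -0.57 against V1, where 19 were lower, and 0.07 against V3, where 0 passed. Polo-like kinase 1 (PLK1) read 8.58 and 8.94 on clone 5, against 8.74 and 8.86 on V3 and 9.99 on V1, so clone 5 overlapped V3 and both lay below V1. Without V1, or with the clone as a random block, the 4 calls were lost. Leaving out any other single array also lost some of them.

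Of 7 cyclin-dependent kinase inhibitors, 2 were higher and 1 lower (42.9% called against 8.59% of all genes). With the clone as a random block 0 were higher and 0 lower. The inhibitor p57 (CDKN1C) read 7.69 and 7.51 on clone 5, against 7.13 and 7.02 on V3 and 4.77 on V1. It was 1.44-fold above V3 and 7.11-fold above V1. CDKN1B (p27) was 1.84-fold higher and CDKN3, a phosphatase grouped with them, 1.32-fold lower, the last in V1 alone, since clone 5 read 9.23 and 9.25 and V3 9.09 and 9.17.

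The genes that ATF4 induces when amino acids run short or proteins misfold gave the mirror picture. Of 27 measured, 9 were higher and 0 lower (33.3% against 8.59% of all genes), with a median of 0.31. Against V1 15 were higher and the median was 0.65, while against V3 1 was higher, 1 lower, and the median -0.01. V1 lay below V3 in 14 of the 27. With a single array left out 0 to 5 were higher, and with the clone as a random block 2. DDIT4, an inhibitor of mTORC1, read 10.82 and 11.12 on clone 5, against 10.56 and 10.65 on V3 and 9.18 on V1. SESN2, a leucine sensor upstream of mTORC1, was 1.55-fold higher, ATF4 itself 1.35-fold, and DDIT3 (CHOP) 1.31-fold. Of 15 heat shock genes, 3 were higher and 0 lower (20% called against 8.59% of all genes), 12 did not pass, and the median was 0.02. HSPA6, an inducible HSP70, was 4.6-fold higher, at 7.14 and 7.18 against 5.19, 5.21 and 4.71. The small heat shock proteins HSPB1 and HSPB8 were 1.58-fold and 1.59-fold higher.

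**Figure D4:**
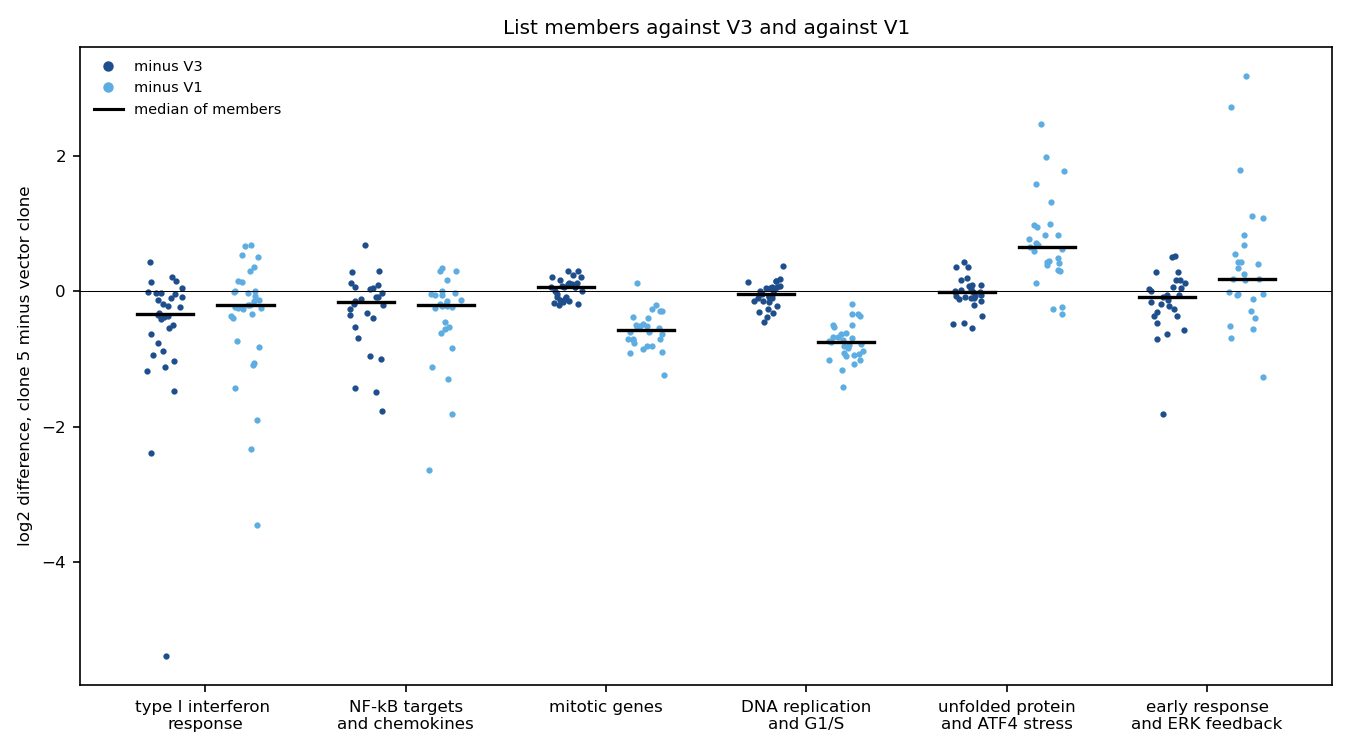
Log2 difference of clone 5 from V3 (dark) and from V1 (light) for the members of 6 gene lists; each point is a gene and each bar the median of the members, with sideways scatter for legibility only. The medians of the mitotic, replication and ATF4 lists are 0.07, -0.05 and -0.01 against V3 but -0.57, -0.75 and 0.65 against V1, while the interferon medians are -0.34 and -0.20.

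Of 21 genes of the list of ERBB and other growth factor receptors with their ligands and inhibitors, 5 were higher and 1 lower (28.6% against 8.59% of all genes), with a median of 0.20. With an array left out 0 to 4 were higher, and with the clone as a random block 2 were higher and 0 lower. FGFR3 read 6.78 and 6.53 on clone 5 against 5.6, 5.91 and 5.22, 2.24-fold higher (adjusted p = 0.0034). IGF1R and ERBB2 were 1.73-fold and 1.71-fold higher, and ERRFI1, which inhibits EGFR, 1.4-fold higher. No other probe set of FGFR3, IGF1R or ERBB2 was called. The ligand neuregulin 1 (NRG1) was 1.92-fold lower, at 7.21 and 7.09 on clone 5, against 7.33 and 7.63 on V3 and 8.71 on V1, and did not pass against V3 (adjusted p = 0.287). Early response genes, which growth signals induce within minutes through ERK, were mixed. Of 27, 6 were higher and 3 lower (33.3% called against 8.59% of all genes). Against V3 alone it was 0 and 3, and with the random block 1 and 3. FOS read 6.67 and 7.14 on clone 5, 7.27 on both V3 arrays and 3.73 on V1, so its call of 2.66-fold higher rested on V1. FOSL1 was 1.89-fold, KLF4 1.62-fold and the ERK phosphatase DUSP5 1.51-fold lower, while DUSP6 was 1.51-fold higher.

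Of 25 TGF-beta and BMP genes, the BMP targets ID1 and ID3 were higher and TGFB2 and LTBP2 lower (16% against 8.59% of all genes). ID3 read 7.84 and 7.93 on clone 5, against 5.94 and 6.26 on V3 and 7.93 on V1, so clone 5 was level with V1. Of 25 Wnt genes, 3 were higher and 1 lower (16% called against 8.59% of all genes). DACT2, which binds Dishevelled, read 7.52 and 7.70 on clone 5, against 3.39 and 4.62 on V3 and 5.05 on V1, 8.48-fold higher with a wide error (SE 0.32 log2, adjusted p = 0.00297). The co-receptor LRP6 was 2.08-fold and the receptor FZD2 1.78-fold higher, and WNT7B 1.61-fold lower.

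Further genes of largest difference lay outside these pathways. KLHL13, a substrate adaptor of the cullin-3 ubiquitin ligase that works in cytokinesis, read 8.83 and 8.49 on clone 5 against 4.45, 4.78 and 3.96, 20.8-fold higher (adjusted p = 2.21e-05). FAM107B read 8.99 and 8.93 against 5.99, 5.83 and 4.96, 11.5-fold higher. SNHG24, a small nucleolar RNA host transcript, read 8.04 on both clone 5 arrays against 4.22, 4.20 and 5.81. SLC16A14, of the monocarboxylate transporter family, IGFBPL1 and DIPK1A were 8.28-fold, 6.71-fold and 7.62-fold higher. SCNN1G, the gamma subunit of the epithelial sodium channel, was 4.38-fold higher at 1 probe set and not called at its other (log2 -0.07). The vector means of KLHL13, SLC16A14, DIPK1A and COL4A5 lay below every array median, so those folds are open in size. RASEF, a Rab-type GTPase with EF hands, read 4.61 and 5.16 on clone 5 against 7.86, 7.99 and 7.86, 8.06-fold lower. RASEF was 9.11-fold lower at another probe set, 1.44-fold higher at a further one (adjusted p = 0.0287), and not called at the 2 others, so its probe sets disagreed. SLFN11, which blocks stalled replication forks, was 5.71-fold lower, at 5.09 and 5.05 against 7.42, 7.73 and 7.59.

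Metabolic and transport genes held a few large changes. KMO, the kynurenine hydroxylase of tryptophan breakdown, read 3.98 and 4.10 on clone 5 against 7.13, 7.25 and 6.60, 7.24-fold lower (adjusted p = 4.25e-05). The size of that fold is open, as clone 5 lay below every array median. QPRT, which acts later in that pathway towards NAD, was 2.14-fold higher, at 8.40 and 8.44 against 7.77, 7.82 and 6.85. Glutamine synthetase (GLUL) was 1.73-fold lower. CDS1, which makes CDP-diacylglycerol for phosphoinositide synthesis, was 6.01-fold lower, with 2 of its 3 other probe sets also called. Of 17 efflux and solute transporters, 4 were higher and 1 lower (29.4% called against 8.59% of all genes). ABCG2, a drug efflux pump, read 6.66 and 6.52 against 7.69, 7.79 and 8.23, 2.63-fold lower (adjusted p = 0.00233), while ABCC3, ABCA1 and ABCC5 were 2.01-fold, 1.88-fold and 1.52-fold higher. These 3 did not pass against V3 (adjusted p = 0.434, 0.294 and 0.0792). SREBF1 was 1.68-fold higher at its brightest probe set and not called at its other (log2 0.003). Of 16 sterol synthesis genes only MVD and TM7SF2 were called, both higher (12.5% against 8.59% of all genes). TM7SF2 read 9.06 and 9.10 on clone 5, against 9.23 and 9.46 on V3 and 6.90 on V1, so clone 5 lay below V3. The lipid droplet protein PLIN2 and the fat cell regulator PPARG were 1.63-fold and 1.87-fold lower. The other probe set of PLIN2 was not called (log2 0.26). Of 26 hypoxia and glycolysis genes 3 were higher (11.5%, near the 8.59% of all genes), with a median of 0.03. Of 15 iron genes (13.3% called) the transferrin receptor TFRC was 1.47-fold lower and STEAP2 1.36-fold higher.

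Of 18 transcription factors of pancreatic and ductal identity, 3 were higher and 2 lower (27.8% called against 8.59% of all genes). FOXP1, a forkhead repressor, read 7.06 and 7.39 on clone 5 against 4.94, 4.97 and 4.32, 6-fold higher (adjusted p = 8.19e-05). FOXP1 was also higher at 2 other probe sets, not called at 4, and lower at 1 dim probe set (-0.39, adjusted p = 0.0451). SOX9, the ductal lineage factor, was 1.71-fold and the Notch target HES1 1.49-fold higher, and FOXA1 and GATA4 were 1.6-fold and 1.37-fold lower. PLAGL1, an imprinted zinc finger factor that restrains growth, read 6.67 and 6.81 against 4.23, 4.66 and 4.63, 4.59-fold higher.

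Of 13 ductal markers, 5 read above 6 on all 5 arrays and 7 below 6 on all 5. Every one of the 10 acinar and 12 leukocyte markers read below 6 on all 5 arrays. Of 12 endothelial markers 1 was above and 10 below, of 12 fibroblast markers 2 above and 9 below, and of 14 endocrine markers 2 above and 10 below. These levels are of different probe sets, so lists are not ranked by them. The mean level of the acinar list was 3.81 and 3.84 on clone 5 and 3.79 to 3.88 on the vector arrays. That of the leukocyte list was 4.13 and 4.12 against 4.03 to 4.13. Of the ductal list SOX9 was called higher and KRT7 lower (15.4% against 8.59% of all genes). Of the endocrine list CHGB, SYP and ENO2 were higher and GAL lower (28.6%). THY1 of the fibroblast list and CD14 of the leukocyte list were higher (8.33% of each list, near the 8.59%). No acinar or endothelial marker was called. The called markers differed by 1.31-fold to 1.99-fold. CD14 read 4.58 and 4.64 on clone 5 against 4.42, 4.5 and 3.97.

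Of 16 partners and reported effectors of S100P, cathepsin D (CTSD) alone was called (6.25%, near the 8.59% over all genes), 1.64-fold higher at 9.66 and 10.13 on clone 5 against 9.30, 9.42 and 9.0. Members ranged from -0.39 to 0.71 on the log2 scale around a median of 0.01. Of 18 S100 genes only S100A3 was called (5.56%). It was 2.12-fold lower, at 5.87 and 6.5 on clone 5, against 6.5 and 6.95 on V3 and 7.82 on V1. It was not called with the clone as a random block.

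Clone 1 carries the same plasmid, and clone 5 was tested against it directly. Clone 5 differed from clone 1 in 597 genes (3.02%), of which 464 were lower (2.35% of all genes) and the rest higher (0.673%). Only 85 genes (0.43%) were called in the same direction against the vector clones and against clone 1 with both clone 5 arrays beyond the other 5, 27 of them higher (0.137%) and 58 lower (0.293%). Calls against clone 1 were lost when any 1 array of clone 1, clone 5 or V3 was left out. Such a fit had 2 residual degrees of freedom instead of 3, and the V3 arrays enter this test only through the spread. These losses therefore do not show that the differences rest on single arrays. With all arrays, or without V1, 1195 probe sets passed (2.19%).

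Among the 8 named genes on the higher side, HSPA6 had the largest of the smallest differences from V3, V1 and clone 1, at 7.14 and 7.18 on clone 5, against 5.28 and 5.02 in clone 1 and 4.71 to 5.21 on the vector arrays. EPHB6 read 6.04 and 5.81 on clone 5, but 3.62 and 3.88 in clone 1 and 4.12 to 4.35 on the vector arrays. COL5A2, a fibrillar collagen, read 7.99 and 8.15 on clone 5 against 6.27 and 6.05 in clone 1. PCOLCE2, which enhances procollagen processing, PAPSS2, which makes the sulfate donor for glycans, AGAP4, DIPK1A and PLAGL1 were higher than clone 1 by 1.02 to 1.63 on the log2 scale. AGAP4 belongs to a family of near-identical copies, so its value is uncertain.

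On the lower side stood CDH2, which read 6.61 and 6.39 on clone 5 whereas clone 1, at 8.68 and 8.57, was level with the vector arrays. RASEF was lower than clone 1 by a log2 difference of -2.38 and SLFN11 by -1.35. MYLK and FAM241A were lower by -1.33 and -1.32. CCN5, a matricellular protein of the CCN family, read 6.80 and 6.87 on clone 5, against 8.06 and 8.08 in clone 1 and 8.06 to 8.49 on the vector arrays. GABBR2, a subunit of the GABA-B receptor, and the cytokine IL32 differed from clone 1 by -1.18 and -0.95.

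**Figure D5:**
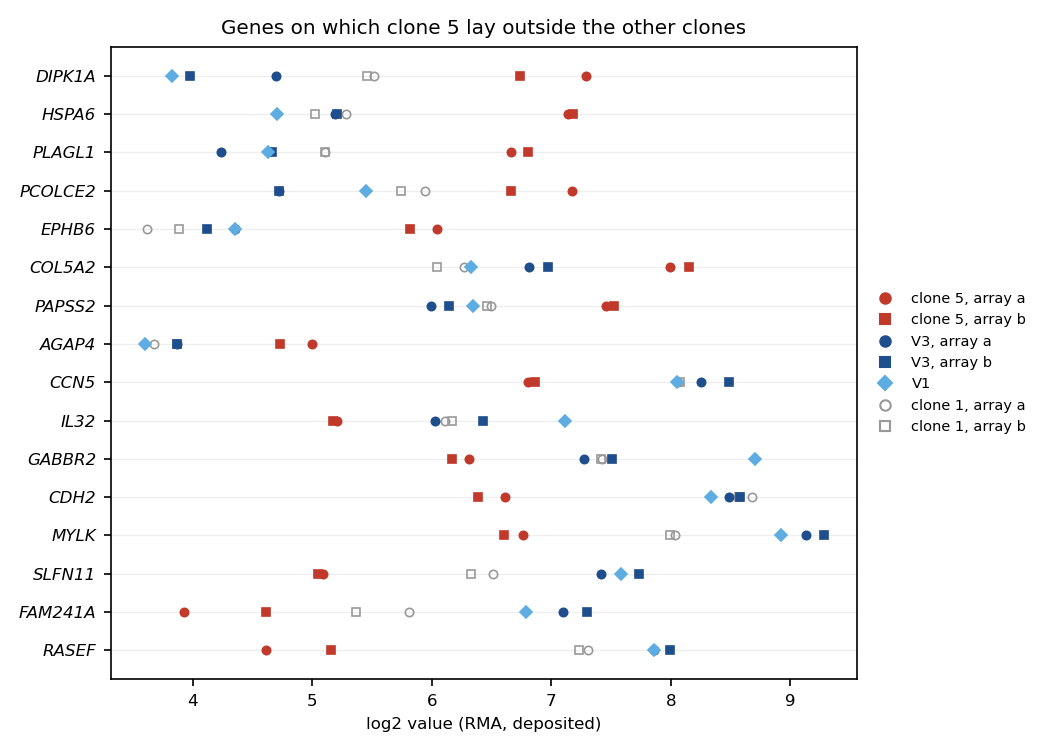
Log2 value on each of the 7 arrays for the 8 higher and 8 lower genes in which clone 5 stood apart from the vector clones and from clone 1. In every row both clone 5 points lie beyond the 5 other points, as the choice of these genes required.

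Other genes placed clone 5 between the vector clones and clone 1. GLUL read 8.53 and 8.61 on clone 5, 9.12 to 9.54 on the vector arrays and 6.23 and 6.14 on clone 1. ABCG2 read 6.66 and 6.52 on clone 5, 7.69 to 8.23 on the vector arrays and 4.63 and 4.21 on clone 1. DOCK4 and NES showed the same order, and so did RAB27B in the higher direction, at 10.62 and 10.46 on clone 1. In each of these 5 genes clone 5 differed from clone 1, by 1.24 to 2.39 log2 units in size. CD24, KLHL13, TMEM47 and IFITM1 were level between the S100P-labelled clones to within 0.03 log2 units of their means; this does not show that the clones act alike, as each value rests on 2 arrays.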

How the data were processed

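RNA of 7 Panc1 arrays (Affymetrix HG-U133 Plus 2) had been processed by the authors with RMA, per the submitters' processing notes, and the deposited log2 values were used as given. Their scale was read from their range. RMA's version, and whether it ran on all arrays at once, is not given in the sources used here. Without detection calls no gene was called absent. Precision is limited by how few arrays there were.

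Of 54675 probe sets, 62 controls were left out. In the platform annotation 41091 of the others had 1 symbol, 1801 several and 11721 none. Only the 41091 name genes here, and 41037 of them were found by Entrez number in the current gene table.

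Tests used limma 3.58.1 with statmod 1.5.0 in R 4.3.3 on all 7 arrays, with the 4 clones as fixed effects and 3 residual degrees of freedom, so they compare these clones and not conditions. P-values were two-sided and adjusted by Benjamini-Hochberg across 54613 probe sets, with 0.05 as the threshold. The fit was tested on simulated data. Tables used pandas 2.3.3 and figures matplotlib 3.10.9.

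Named genes were S100P, the 15 largest in each direction with both clone 5 arrays beyond all vector arrays, ranked by the smaller of the differences from V3 and V1, the 8 in each direction that also stood apart from clone 1, and up to 4 called members of each list in each direction. The comparison and the gene lists were chosen with earlier results of these data known.

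Alternatives were each vector clone alone, 5 arrays only, equal array weights, the clone as a random block, clone averages, a replicate block, a variance trend, a dim filter, centring, quantile normalization and each array left out. Letters a and b did not pair arrays (correlations of deviations 0.063, 0.05 and -0.082).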

Additional observations from a re-analysis of the deposited data

Results flagged for a closer look

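In 52 of the 156 named and called genes the difference of clone 5 from the vector clones was not the same as that of clone 1 from the same vector clones, by the limma test of clone 5 minus clone 1 (adjusted p under 0.05). Over all genes 3.02% passed that test, and 16 of the 52 had been named because they passed it. The 156 were called in a test that shares the clone 5 arrays, so their share cannot be compared with the 3.02%. On the ACTB gauge of RNA integrity clone 1 stood above the other clones, and the part of this was not tested. Values are that log2 difference, clone 5 minus clone 1. None of these calls remained when 1 array of clone 1, clone 5 or V3 was left out, which also left 2 residual degrees of freedom instead of 3.

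In 21 genes clone 5 lay further from the vector clones than clone 1 did, with the same sign, although in HSPA6, PAPSS2, AGAP4, CCN5, CCL2, FOSL1 and QPRT clone 1 itself did not pass against the vector clones: DIPK1A 1.53, COL4A5 0.70, PLAGL1 1.63, RASEF -2.38, FAM241A -1.32, SLFN11 -1.35, CDS1 -0.88, MYLK -1.33, HSPA6 2.01, PCOLCE2 1.08, PAPSS2 1.02, AGAP4 1.09, CCN5 -1.24, GABBR2 -1.18, IL32 -0.95, KRT80 -0.94, NTN4 -0.53, IFIT2 -0.92, CCL2 -1.02, FOSL1 -0.86 and QPRT 0.81.

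In 20 genes clone 5 lay less far from the vector clones than clone 1, with the same sign: RAB27B -1.24, FOXP1 -0.81, DSC2 -0.55, DSG2 -1.01, DOCK4 1.89, NES 1.5, PSMB9 0.61, FOSB -0.47, DUSP6 -0.95, ERRFI1 -0.56, ID3 -1.26, CDKN1C -0.94, SESN2 -1.33, DDIT4 -0.91, DDIT3 -1.44, VEGFA -0.78, GLUL 2.39, ABCG2 2.17, STEAP2 -1.39 and TFRC 0.49.

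In 11 genes the clones lay on opposite sides of the vector mean: EPHB6 2.18, COL5A2 1.91, CDH2 -2.13, RHOB -1.22, EFNA5 -0.52, SV2A 1.56, KLF4 -1.40, DUSP5 -1.67, NRG1 -0.95, TGFB2 -0.81 and CD14 0.74. Of these, CDH2, NRG1, TGFB2 and EFNA5 lay within 0.20 log2 units of the vector mean in clone 1, and CD14 did not pass against it either, so their opposite sign rests on a small or uncertain value there.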

How the results depend on the processing

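Clone averages gave 0 calls (0 higher, 0 lower, 0 at least 2-fold; 1912 at an unadjusted p under 0.05), so the counts describe these clones only. The 5 arrays alone gave 445 probe sets (304 higher, 141 lower, 332 at least 2-fold), and V3 alone 2292 (1496 and 796). V1 alone gave 1245 at least 2-fold, and a dim filter 2155 lower. Leaving out 1 array gave 178 to 2292 (117 to 1496 higher, 61 to 796 lower, 177 to 614 at least 2-fold). Calls against clone 1 ran from 0 to 1195 so, and were 2653 with the dim filter and 1813 after centring. The replicate block, over letters that share only a letter, gave 3940 against 3684, and 1275 against clone 1. The random block gave 2656 (consensus correlation -0.382). With a negative correlation it makes no allowance for spread between clones, so passing it is no check on that spread. Centring made 55.8% of the calls higher, against 64.7%. S100P turned to -0.427 against V3 alone, -0.032 with equal array weights and -0.148 with the random block, was called at 0.758 against V1 alone, and ran from -0.427 to 0.253 with an array left out. Also reversed, against V3 alone and so without V1, were CDC42EP5 (-0.002, against up to 0.814 with another array left out), SV2A (-0.277, up to 0.591), FOS (-0.36, up to 1.648), CDKN3 (0.113, down to -0.417), TM7SF2 (-0.264, up to 1.014), VEGFA (-0.024, up to 0.842), STEAP2 (-0.048, up to 0.49) and GAL (0.089, down to -0.962). Without clone 5 a PECAM1, not called, turned to -0.025 (up to 0.541), and against V1 alone ELF3 (0.329) and ID3 (-0.045) turned. Of 156 named genes that were called, 36 passed whichever array was left out, 99 with the random block, and 86 against each vector clone alone. The cause was not tested. Detection calls were not used here, so folds against dim groups stay uncertain in size.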
